A study of Mus musculus with 2 samples.

Results

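Cytosolic ribosomal proteins were examined in purchased total RNA of mouse spleen, hybridised to 2 oligonucleotide arrays. The members were all probe sets whose platform gene symbol begins with Rpl, Rps or Rplp followed by a digit, with the S6 kinases (Rps6k symbols, 3 probe sets) left out. This rule took 87 of the 12422 probe sets that are not array controls. Of these, 50 read the large subunit and 37 the small subunit, and they stood for 65 genes once pseudogene copies were set aside. In all, 8949 gene symbols are named on the arrays, pseudogene copies included. The arrays form 1 group with no treatment, genotype or age in the labels, which name only the catalogue item that was bought. They do not say whether the arrays shared a tube, a labelling reaction or an animal, so the spread between them may be technical alone. No condition was compared, and no p-value was computed. Because whole-organ RNA was used, the number of cells and the RNA per cell cannot be told apart.

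The cytosolic ribosome joins a small subunit, which holds the messenger RNA and matches it to transfer RNA, to a large subunit, which forms peptide bonds and passes the new chain out through a tunnel. Nearly every subunit protein is present once per ribosome, and the genes are read in every growing cell. Their messengers begin with a stretch of pyrimidines, the terminal oligopyrimidine tract, through which the mTOR pathway controls their translation. In people, loss of 1 copy of several of these genes causes Diamond-Blackfan anaemia, a failure of red cell formation. Mutation of RPSA causes absence of the spleen at birth.

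The start sites of 6 genes are shown because the arrays gave 3 of them a very high signal and 3 a signal near background, while all 6 carry a pyrimidine run across a start that RefSeq lists. Rpl35a has 3 listed starts, and the longest run around the other two was 4 and 5 bases. Each window holds 25 bases before and 25 after that start, 5′ to 3′ on the strand of the gene, from RefSeq on build GRCm38.p6. Capitals mark the longest unbroken run of C and T. The first 3 genes were high on the arrays and the last 3 were low.
Rpl7a, chr2:26910782-26910831, plus strand: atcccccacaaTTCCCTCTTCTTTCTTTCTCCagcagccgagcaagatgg
Rps10, chr17:27635220-27635269, minus strand: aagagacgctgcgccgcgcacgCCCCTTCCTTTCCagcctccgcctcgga
Rps18, chr17:33955641-33955690, minus strand: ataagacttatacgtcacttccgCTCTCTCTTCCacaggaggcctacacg
Rpl15, chr14:18270962-18271011, minus strand: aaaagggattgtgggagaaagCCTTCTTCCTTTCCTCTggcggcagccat
Rpl35a, chr16:33056457-33056506, plus strand: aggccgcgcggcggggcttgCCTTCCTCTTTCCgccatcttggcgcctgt
Rpl38, chr11:114668555-114668604, plus strand: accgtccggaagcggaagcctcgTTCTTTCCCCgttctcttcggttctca

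Of the 65 genes, 51 were found in the RefSeq promoter table with 61 listed starts. A run of at least 8 pyrimidines lay anywhere in the 50 bases around 28 of the 61 starts, or 45.9%. Over all 32851 RefSeq starts it was 19.7%. Unlike in the windows shown, the run need not cross the start, so this is no count of terminal oligopyrimidine tracts. The letters CGGAAG, or CTTCCG on the other strand, the core bound by ETS factors such as GABP, were found in 62.3% of the members' 300-base windows and in 16.9% of all. Member genes with a bright probe set, as defined below, had the run at 21 of 48 starts, and genes without one at 7 of 13. The run was thus present in genes of either kind. A match is a description of the letters and no evidence of a bound factor.

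The deposited values are signal intensities on a linear scale. Bright probe sets are those that passed the 60th percentile on array 1, at 346.32, and also on array 2, at 342.22. Dim probe sets are those at or below the highest of 15 bacterial control probe sets on both arrays, which gave 95 on array 1 and 76.2 on array 2. Of the 87 members 55 were bright (63.2%), against 37.9% of all probe sets, 16 were dim (18.4%), against 26.3%, and 16 lay between. The members' median log2 signal was 11.47 on array 1 and 11.49 on array 2, beside 7.83 on each array over all probe sets. For the 48 members that name a single gene it was 8.46 and 8.28, beside 7.92 and 7.91 for all such probe sets. Of the 124 probe sets in the top 1% by mean log2 signal, 39 were members. Since probes of different sequence bind with different strength, a higher signal of 1 gene than of another does not show more of its RNA, and medians over groups carry the same limit.

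**Figure D1:**
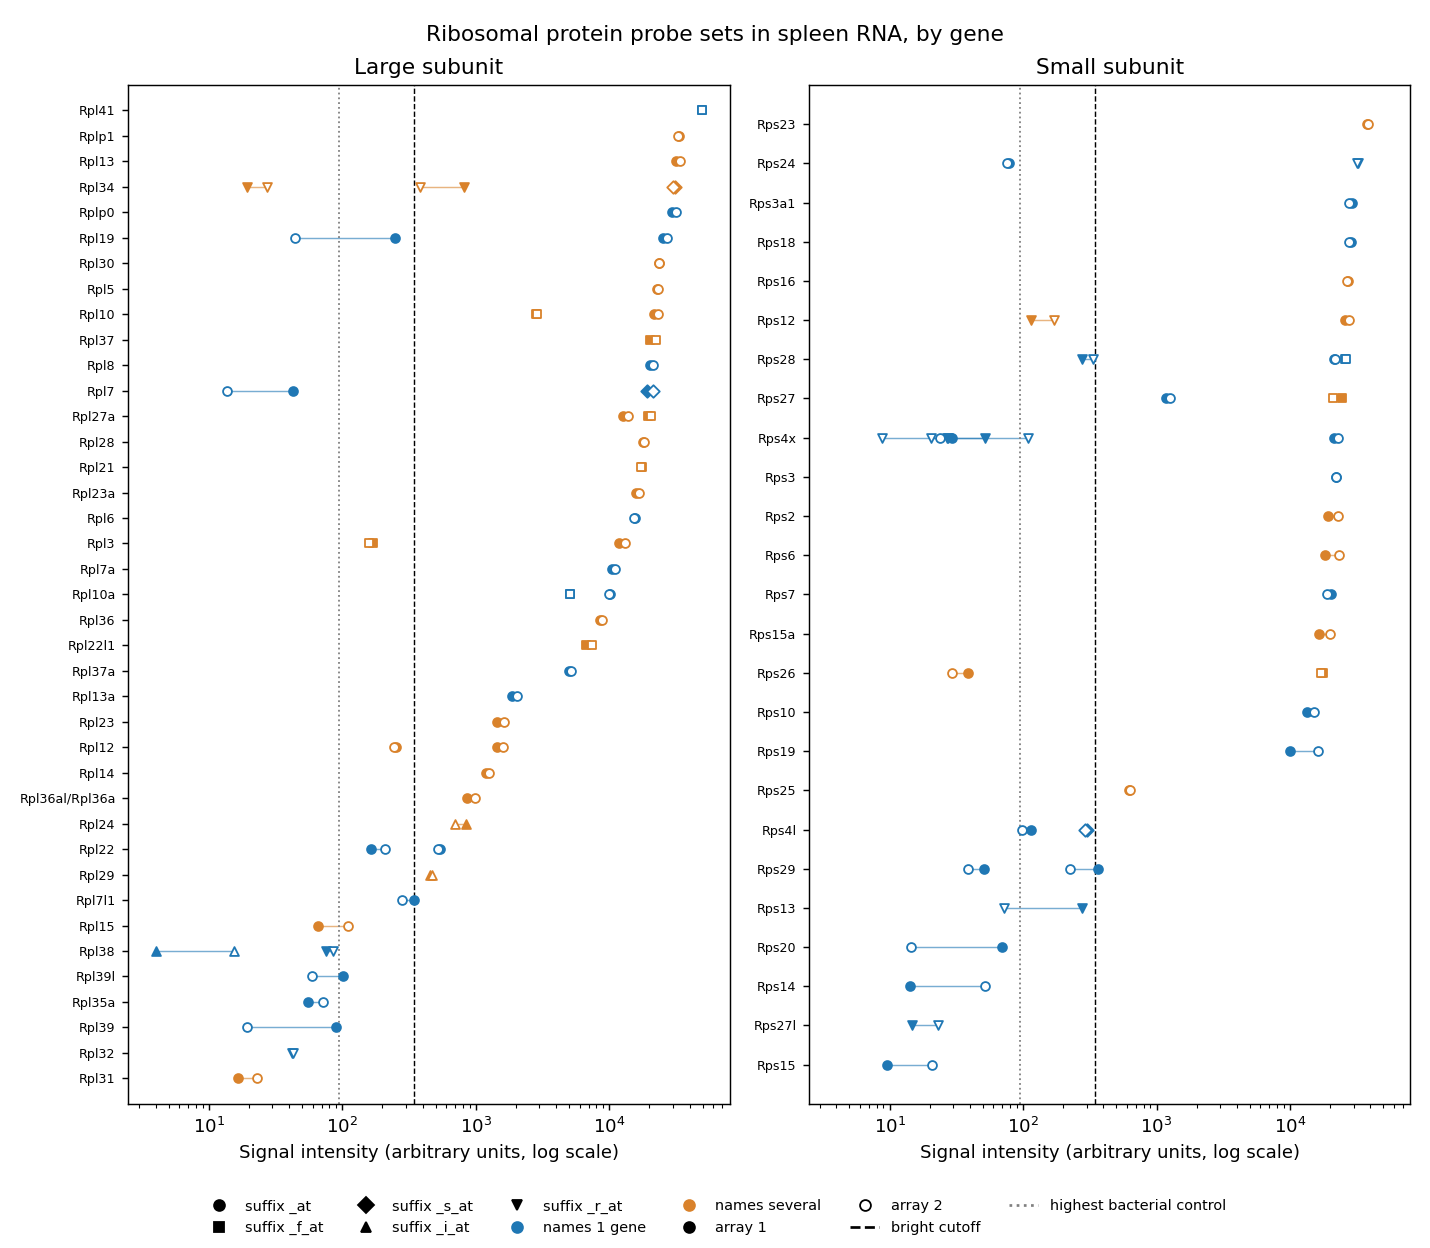
Signal intensity of every ribosomal protein probe set on a log axis, by gene and subunit; filled symbols are array 1, open symbols array 2, and a line joins the arrays. Most genes have a probe set far to the right of the dashed bright cutoff (346.32, that of array 1), and 15 genes have none; the dotted line is the highest bacterial control of array 1 (95).

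The labelled tissue was checked first. All 8 measured spleen markers of 9 listed were bright, among them Cd79a of B cells and the haem enzyme Alas2 of red cell precursors. So were all 5 acinar genes of the neighbouring pancreas, from 4949 ± 44.1 for colipase Clps to 24153 ± 1240 for Ctrb1 (SD, n = 2 arrays here and below). Snap25 of brain, Acta1 of muscle and Umod of kidney were not bright, and Alb of liver was. How much of the ribosomal protein signal came from pancreatic cells was not tested.

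The stalk of the large subunit recruits the elongation factors. Rplp0, its base, gave 29604 on array 1 and 31708 on array 2, and Rplp1, an acidic stalk protein, gave 33354 and 32639. Rpl12, which sits beside them, was read by 2 probe sets with 3 further symbols each, at 1442 and 1609 for the brighter and 252.8 and 245.8 for the other, which was not bright. Rplp2 was not analysed here. Both measured stalk proteins proper were thus among the very bright members, and the arrays differed little for either. The Rplp1 probe set names 1 further symbol, so its signal cannot be given to Rplp1 alone.

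Rpl5, which with Rpl11 carries 5S RNA and can restrain the p53 inhibitor Mdm2, gave 22741 and 23166. Its probe set names 1 further symbol. Of the tunnel wall proteins Rpl39 was dim, at 89.2 and 19.3, while Rpl4 and Rpl17 were not analysed here. Around the tunnel exit, Rpl19 gave 25119 and 27013 and Rpl23a, the docking site of signal recognition particle, gave 15932 and 16821. The Rpl23a probe set names 7 further symbols. Rpl22, whose loss in mice impairs development of alpha-beta T cells, gave 537.5 and 517.6 by its brighter probe set and 163 and 209.8 by the other. Rpl31 was dim, at 16.5 and 22.9, with 1 probe set that also names a pseudogene.

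A further 15 large subunit genes had a signal above 10000 on both arrays. Rpl41, the shortest ribosomal protein, gave 49810 and 49861, and its probe set carries the suffix _f_at, which marks probes that read a family of similar sequences. Rpl13 gave 31681 and 33683 and Rpl34 gave 31175 and 30280. Rpl30 gave 23651 and 23709, Rpl10, needed for joining of the subunits, gave 21550 and 23180, and Rpl8 gave 20050 and 21354. Rpl37, Rpl7, Rpl27a, Rpl28 and Rpl21 had means between 17514 ± 186 and 21221 ± 1490. Rpl6 at 15423 ± 74.8, Rpl3, a part of the peptidyl transferase centre, at 12400 ± 925, Rpl7a at 10723 ± 458 and Rpl10a at 10102 ± 92.7 complete them. These 20 genes, Rplp0, Rplp1, Rpl5, Rpl19 and Rpl23a included, made up 20 of the 32 bright large subunit genes. Rpl13, Rpl34, Rpl30, Rpl10, Rpl37, Rpl27a, Rpl28, Rpl21 and Rpl3 were read only by probe sets that name several symbols.

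The remaining 12 bright large subunit genes spread over a wide range. Rpl36 gave 8589 and 8821, Rpl22l1, a paralogue of Rpl22, 6672 and 7422, and Rpl37a 4964 and 5211. The probe set of Rpl22l1 also names Orc5, a gene of DNA replication, so its signal cannot be given to Rpl22l1 alone. Rpl13a, which in interferon-treated myeloid cells leaves the ribosome to silence inflammatory messengers, gave 1860 and 2024. Rpl23 gave 1440 and 1633 and Rpl14 gave 1188 and 1266. Rpl36a and Rpl36al share 1 probe set, at 862 and 991. Rpl24, with 848.7 and 704.1, and Rpl29, with 453.1 and 466.9, were each read by a probe set with the suffix _i_at, which marks a reduced number of probes. With Rpl12 and Rpl22 these complete the 12. Rpl36, Rpl23, Rpl14, Rpl24 and Rpl29 were also read only by probe sets that name several symbols.

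In the small subunit, Rps2, Rps3, Rps15 and Rps23 line the channel and the decoding site. Rps23 gave 37437 and 38393, Rps3, which also acts in DNA repair, gave 22235 and 22124, and Rps2 gave 19206 and 22724. Rps15 was dim, at 9.5 and 20.7. On the platform, where the messenger leaves, Rps26 gave 17616 and 17146 and Rps28 gave 25886 and 26425, whereas Rps14 was dim at 14.3 and 51.9. Rps6, the substrate of S6 kinase downstream of mTOR, gave 18292 and 23135. After centring, its signal on array 2 was higher by 0.34 on the log2 scale. Rps23, Rps2, Rps26 and Rps6 were read only by probe sets that name several symbols.

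Other bright small subunit genes were Rps3a1 at 28357 ± 822, Rps18 at 28337 ± 740, Rps16 at 26957 ± 237, Rps12 at 26736 ± 1143, Rps27 at 22691 ± 2628 and Rps4x at 22219 ± 1196. Rps7 gave 19611 ± 806, Rps15a 18217 ± 2471 and Rps10 14227 ± 1250. Rps19 gave 9982 and 16204, so it passed 10000 on array 2 alone, and Rps25 gave 627.1 and 637.3. The readings given here for Rps16, Rps12, Rps27, Rps15a and Rps25 come from probe sets that name several symbols. The single-gene probe set of Rps27 gave only 1180 and 1256. By the brightest probe set of any kind, 16 of the 18 bright small subunit genes were above 10000 on both arrays, against 20 of 32 in the large subunit. With single-gene probe sets alone the counts were 8 of 10 and 8 of 11. Both small subunit counts include Rps24, whose bright probe set is in doubt, as described below. Among the 14 bright genes that did not pass that level by any probe set, 12 were of the large subunit, and 2, Rps19 and Rps25, of the small subunit. The 12 include the paralogue Rpl22l1 and count Rpl36a and Rpl36al, which share 1 probe set, separately. Of all 12422 probe sets 121 passed 10000 on both arrays.

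Subunits were compared on counts and medians alone, since genes are not replicates. By probe set, 35 of 50 were bright in the large subunit (70%) and 20 of 37 in the small (54.1%), against 37.9% of all. The median log2 signal over probe sets was 11.89 in the large and 10.25 in the small subunit. Over those that name a single gene it was 9.98 and 8.18. Over the 28 and 11 that name several genes it was 12.93 and 14.33, and so higher in the small subunit. Per gene, with every member probe set used, 32 of 40 and 18 of 25 were bright (80% and 72%). Of all 8949 gene symbols 47% had a bright probe set of any kind, but those symbols still include pseudogene copies. With only the probe sets that name a single gene, 11 of 17 and 10 of 17 were bright, against 45.2% of all 8251 genes. Among those bright genes the median log2 signal was lower in the large subunit, at 13.91, than in the small, at 14.44. The difference of large minus small was -0.52, with -0.49 on array 1 and -0.56 on array 2. Over all 34 genes with a single-gene probe set the difference was -1.32, and it turned to 0.44 when all readings of a gene were averaged. The spread of values within each subunit was larger than the gap between them: the middle 50% of large subunit probe sets ran from 7.64 to 14.25 and of small subunit ones from 6.07 to 14.44.

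**Figure D2:**
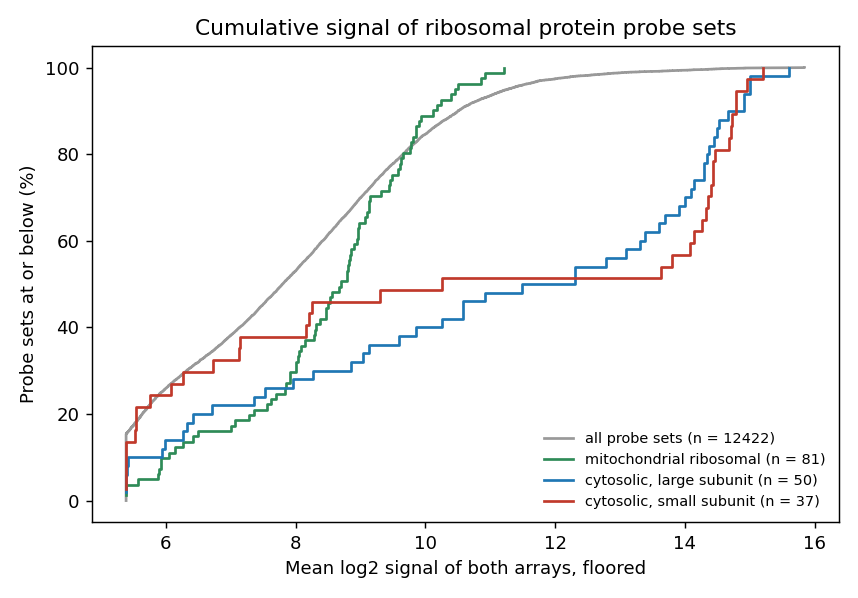
Share of probe sets at or below each mean log2 signal of both arrays, for all probe sets and for 3 groups of ribosomal protein probe sets. Both cytosolic curves are flat in the middle and steep near a log2 signal of 14, whereas the mitochondrial ribosomal curve ends below 12.

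No probe set of 15 genes was bright, 8 in the large subunit and 7 in the small. Of these, 11 belong to the standard set of subunit proteins and 4, Rpl39l, Rpl7l1, Rps27l and Rps4l, are paralogues or related genes. Rps27l, a p53 target related to Rps27, gave 14.7 and 23.1, and Rpl39l, a form of Rpl39 found mainly in testis, gave 100.4 and 59.3. Rpl7l1, which resembles Rpl7, gave 343.4 and 278.1, under the cutoff on each array, and Rps4l gave 298.9 and 289.7 by its brighter probe set. These 4 were taken from the genes with no bright probe set, so their low state was fixed by that choice. The shared probe set of Rpl36a and Rpl36al and that of Rpl22l1 were bright. Of the 5 measured genes on the role list of paralogues, which leaves out Rps4l, 2 were bright. Over all gene symbols, pseudogene copies included, it was 47%.

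The 11 standard members without a bright probe set were Rpl15, Rpl31, Rpl32, Rpl35a, Rpl38, Rpl39, Rps13, Rps14, Rps15, Rps20 and Rps29. Rpl32 gave 42.3 and 43.1, Rpl35a gave 55.3 and 71.9, and Rps20 gave 69.8 and 14.4, all dim. Rpl15 gave 66 and 109.8, above the bacterial controls on array 2 alone. Rpl38, which shapes translation of Hox messengers in the mouse embryo, was read by probe sets at 75.2 and 85.1 and at 4 and 15.5. Rps13 gave 277.6 and 71.6, and Rps29 gave 361.3 and 226.2, so that Rps29 passed the cutoff on array 1 alone. Of the 11, 9 had only 1 probe set on the array. For most of them the arrays thus hold no other reading. Whether the low values come from the probes or from the RNA was not tested.

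Genes with several probe sets show how far readings of the same gene lay apart. Of 18 such genes, 4 were bright on all their probe sets, 11 on some and 3 on none. This split was not computed over all genes of the arrays, so it cannot be called particular to ribosomal proteins. Rps4x, encoded on the X chromosome, gave 21374 and 23065 by 1 probe set, while its other 4 gave between 8.7 and 108.5. Rpl7 gave 19090 and 21098 by 1 probe set and 42.5 and 13.6 by the other. Rpl34 gave 812.9 and 385.4 by its second probe set and 19.2 and 27.2 by the last. Rps26 gave 38.8 and 29.2 by its dim probe set. These 4 were the genes with a bright and a dim probe set. Counting single-gene probe sets alone they were 2 of 10, Rpl7 and Rps4x, against 18.5% of all 2073 genes with several single-gene probe sets.

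In others the low reading was not dim but far below the cutoff or the bright reading. Rpl19 gave 246.3 and 44.5, Rpl3 168.9 and 158.3, and Rps12 114.6 and 170.9 by their lower probe sets. Rps28 had 2 bright readings, the second at 21339 and 21872, and the last at 278.1 and 333.5. Readings of the same order were found for Rpl27a, at 19535 and 20441 and at 12650 and 13856, and for Rpl10a, at 10167 and 10036 and at 5067 and 5045. Rpl10 gave 2840 and 2880 and Rps27 gave 1180 and 1256 by their lower but still bright probe sets. That of Rps27 is its only single-gene probe set. In all, 14 of the 32 members that were not bright belong to a gene that another probe set showed as bright. The same share over all probe sets was not computed.

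The Rps24 result rests on a name that the annotation puts in doubt. Its probe set at 32034 and 31703 carries the suffix _r_at, for relaxed probe selection, and lists the same sequence accession as the bright probe set of Rpl7. The only other Rps24 probe set, with an accession of its own, gave 77.9 and 76.4. The first array value lay below the highest bacterial control of that array and the second just above that of its own. Without the shared-accession probe set Rps24 would not be bright, and 20 in place of 21 genes would be bright by single-gene probe sets. Which transcript the bright probe set reads was not tested. Rpl7a shares its accession with Surf1 and Surf2, which gave 767.9 and 754.3 and 668.3 and 593.8, and which are its neighbours in the Surfeit gene cluster.

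Suffix and naming went with brightness. Of members with the plain suffix _at 39 of 58 were bright (67.2%, against 39.5% of all such probe sets), and of those with _f_at 10 of 11 (90.9%, against 37.2%). Of members with _r_at 2 of 12 were bright (16.7%, against 19.2%), namely the doubtful Rps24 probe set and the second of Rpl34. The suffixes _s_at, for probes shared by similar transcripts, and _i_at had only 3 members each, 2 of them bright. That is 66.7% for either suffix, against 45.8% of all _s_at and 28.1% of all _i_at probe sets. In all, 39 members name several genes, from 2 to 11 symbols, most of them predicted or pseudogene copies. Their suffix does not always say so: 25 carry the plain _at, 8 _f_at, 3 _r_at, 2 _i_at and 1 _s_at. Rps12 heads this list with 11 symbols and Rpl23a has 8. Of these 39, 32 were bright (82.1%, against 54.3% of all 396 probe sets with several genes), and of the 48 with a single gene 23 were (47.9%, against 38.9%). For 31 of the 65 genes no single-gene probe set exists, and 29 of those 31 were bright, so most of the bright genes cannot be told from their copies.

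**Figure D3:**
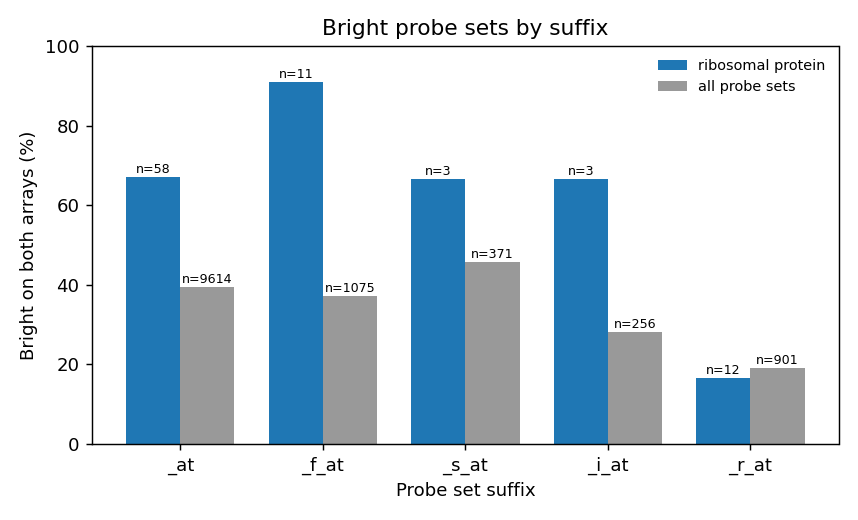
Percentage of probe sets bright on both arrays by suffix, for ribosomal protein members (blue) and all probe sets (grey), with the number of probe sets above each bar. Members stand above all probe sets for each suffix but _r_at, where 2 of 12 members were bright. For _s_at and _i_at this rests on only 3 members each.

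Members were also counted by the accession of the probed sequence. Of the 9 members whose accession begins with AV, a series of expressed sequence tags, 3 were bright, and so were 13.2% of all 718 such probe sets. Of members with tags of the AI and AW series 8 of 11 and 6 of 10 were bright (72.7% and 60%, against 55.2% and 56.4%), and of members with no accession listed 4 of 14 (28.6%, against 25.5%). Of the 42 members with an accession outside the AV, AI, AW and AU tag series, 33 were bright (78.6%, against 35.7%). All 4 low probe sets of Rps4x belong to the AV series.

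The arrays agreed closely on the bright members and less closely on the others. Over the 55 bright members the pooled SD of the log2 signal was 0.148, or 10.8% of the signal, beside 0.152 over all 4708 bright probe sets. Above 10000 on both arrays it was 0.084 for 38 members and 0.075 for 83 other probe sets. Of the 55 bright members Rps19 was the furthest apart toward array 2, with a log2 difference of 0.70 after centring, followed by Rps6, Rps15a at 0.28, Rps2 at 0.24 and the Rpl36a and Rpl36al probe set at 0.20. Toward array 1 the furthest were the second Rpl34 probe set at -1.08, Rpl24 at -0.27, Rps27 at -0.24, Rps7 at -0.08 and Rps3a1 at -0.06. Only the Rpl34 probe set differed by more than 2-fold, 1 of 55, against 0.127% of all bright probe sets. Centred differences were above 0 for 38 of 55 (69.1%, against 50% of all by construction). Above 10000 on both arrays they were above 0 for 65.8% of the 38 members and 62.7% of the 83 other probe sets. The median centred difference of the bright members was 0.04, which was 0.0014 with quantile normalization and 0.089 with the plain suffix alone. This shift was not tested. Without Rps19 the pooled SD was 0.134. Of the 32 members that were not bright, 11 differed by more than 2-fold after centring on the bright probe sets and with no lower limit on the signal (34.4%), against 22.8% of 7682 other such probe sets, and their pooled SD was 0.825, beside 0.704.

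**Figure D4:**
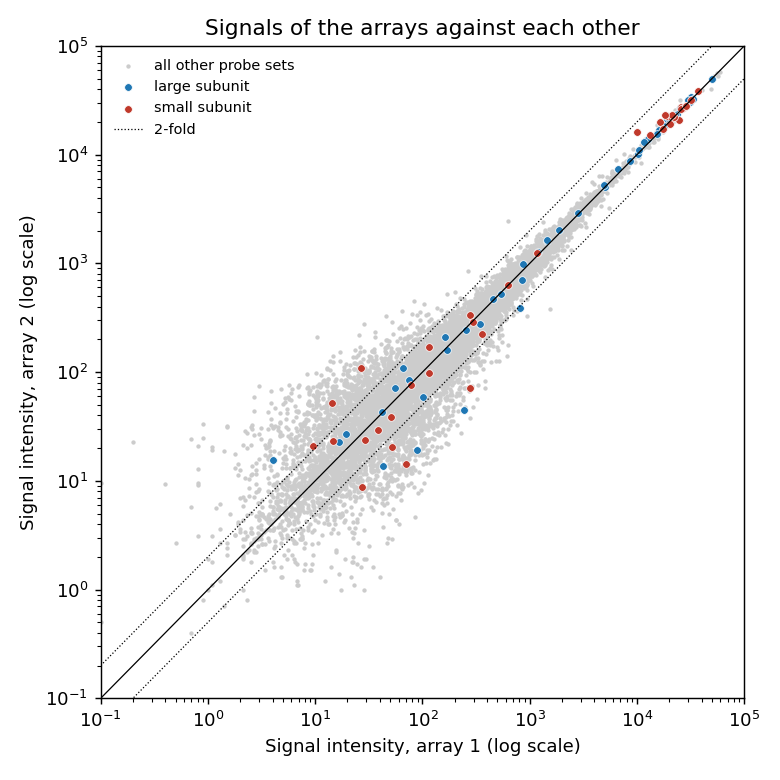
Signal intensity on array 1 against array 2, both on log axes, for large subunit (blue), small subunit (red) and all other probe sets (grey), with the line of equality and 2-fold lines. The 38 members above 10000 lie close to the line of equality, and members of low signal scatter more widely; the points are uncentred values.

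Among the genes of Diamond-Blackfan anaemia, 8 of 12 measured were bright by a probe set of any kind. So were 47% of all gene symbols, pseudogene copies included, and 50 of the 65 member genes. The 8 were Rps19, the gene most often mutated in that disease, Rps7, Rps10, Rps26, Rps27, Rps28, Rpl5 and Rps24, the last with the doubt given above. Rpl5 and Rps26 were bright only by probe sets that name several symbols, and the other Rps26 probe set was dim. Rpl15, Rpl31, Rpl35a and Rps29 were not bright. The other genes of that list were not analysed here. In all, 59 of the 76 standard proteins that the naming rule could take were measured, 36 of 46 in the large and 23 of 30 in the small subunit, and 48 of the 59 had a bright probe set. The other 17 were not analysed here.

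Other genes of the ribosome give the setting. Of ribosomal proteins under other symbols, Rpsa was bright at 6800 and 6718, and Fau, a ubiquitin-like fusion that yields the small subunit protein S30, was dim at 65.8 and 43.1. Mitochondrial ribosomal proteins, which build the separate ribosome of that organelle, were bright for 38 of 61 genes, with a median log2 signal of 8.80. Their means reached 2362 ± 152, for Mrpl52, and none passed 10000. Ribosome assembly factors were bright for 20 of 26 genes, with a median of 9.67 and means that reached 5985 ± 268, for the nucleolar chaperone Npm1. RNA polymerase I genes were bright for 5 of 10, including the rDNA factor Ubtf at 1659 ± 217. Counted in the same way, 45.2% of all genes were bright. Of the 34 cytosolic ribosomal protein genes so counted 21 were bright (61.8%), a share near the mitochondrial one, and 16 passed 10000 on both arrays.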

How the data were processed

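The authors deposited linear signal intensities of 12488 probe sets for each array. How they were computed is not given in the sources used. With the lowest and highest 2% left out, the means were 500.265 and 500.278, so both arrays had been scaled alike before deposit. Detection calls were not used here, and with 2 arrays the precision is limited by their number.

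The 66 control probe sets were left out. Genes came from the platform annotation, in which 10833 probe sets name 1 gene, 396 several and 1193 none. All 65 member symbols were found in the RefSeq table of GRCm38.p6. A member was a probe set with any matching symbol, and its gene was that symbol without pseudogene (-ps) and rt copies. Intensities were floored at the 20th percentile of their array (41.8 on both) for log2 levels. Each gene took the reading with the highest mean log2 level, by default among single-gene probe sets. Log2 differences, array 2 minus array 1, were centred on the median of all bright ones, and the pooled SD was the root of their mean square divided by 2. Simulated data were used to check the code for the bright and dim counts, the pooled SD and the median difference between arrays. Simulated members lay far from both cutoffs, so recovery of their counts was fixed in advance. Subunit differences and gene counts were not checked in that way. Members, lists and thresholds were chosen with earlier results of these data known. Genes were named by role list, by level, by disagreement and by distance between arrays. Alternatives changed 1 choice at a time. Computations used Python 3.11.15 with pandas 2.3.3 and numpy 2.4.6, loess came from statsmodels 0.14.6, and figures from matplotlib 3.10.9.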

Additional observations from a re-analysis of the deposited data

How the results depend on the processing

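Of 78 recomputed values, 58 stayed within 1.5 times (counts, pooled SD and median difference between arrays) or within the spread between arrays (median levels), 19 moved beyond and 1 reversed. Of the 58, 6 are median levels without 1 array, which cannot pass that limit by construction and say nothing of stability. The pooled SD ranged from 0.109 to 0.168. The median difference between arrays, 0.045, became 0.0014 with quantile normalization and 0.089 with the plain suffix alone. The difference of large minus small subunit over all genes, -1.32, reversed to 0.44 when all readings of a gene were averaged, was -2.02 with the plain suffix alone and -0.83 without Rpl7l1 and Rpl22l1. Over bright genes the difference kept its sign in all 11 alternatives, which draw on the same arrays, but 5 of them moved. With brightness set at the 50th percentile, the 75th percentile and the highest bacterial control, -0.52 became -0.79, -0.33 and -0.70. It was -1.01 with the plain suffix alone and -0.70 with averaged readings. Leaving out array 1 or array 2 gave -1.54 and -1.01 over all genes and -0.56 and -0.47 over bright genes.

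Without probe sets that name several genes, 23 members of 48 were bright and the median log2 signal was 8.26, in place of 11.48, which was 13.19 with the plain suffix alone. With them also used per gene, 50 of 65 genes were bright in place of 21 of 34. Dim members, 16 of 87, became 8 of 87 with the limit at the 20th percentile. With the plain suffix they were 10 of 58, a share of 17.2% beside 18.4%. Genes with a bright and a dim probe set, 2, became 4 with several-gene probe sets, 1 with the lower limit, 1 with the plain suffix, and 3 and 4 without array 1 and array 2. Leaving out the Rps24 probe set of doubtful name and leaving out Rps19 were chosen after seeing the data. No paired analysis was possible because there is 1 group. Signal over background limits what the dim members can show: at that level their values have no order.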
